A study of Mus musculus with 9 samples.

Results

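The genes described here are 4 members of the albumin family (Afp, Alb, Afm and Gc), the oncofetal gene Gpc3, and Zhx2 and Zbtb20, whose products repress Afp in mouse liver after birth. They were taken by gene symbol from a table of transcript abundances, and all 7 were found among its 30519 genes, each with 1 transcript. The livers came from miR-122 knockout mice (KO, 1 female and 3 males) and from floxed littermates (WT, 3 females and 2 males), all at 6 weeks of age. PolyA RNA was sequenced from liver powder that had not been crosslinked, while the rest of each powder went to an Argonaute binding assay. The labels name no Cre driver and no cell type for the deletion. The level of miR-122 was not analysed here, and genotype is taken as labelled. One animal gives 1 library, and litters are not named in the labels.

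The albumin family arose by gene duplication, and its members are secreted by hepatocytes. Albumin carries fatty acids, bilirubin and hormones and sets the oncotic pressure of plasma. Alpha-fetoprotein, the product of Afp, is its fetal counterpart. Afamin, the product of Afm, binds vitamin E and Wnt proteins, and Gc encodes the vitamin D binding protein, which also binds actin. In mice, Afp is transcribed at a high level in fetal liver and is silenced in the weeks after birth. Zhx2 is a zinc finger and homeobox protein, found through mouse strains in which adult Afp persists, and it also represses Gpc3. Zbtb20 is a zinc finger protein that binds the Afp promoter, and mice without it in the liver keep Afp on as adults. Glypican 3, the product of Gpc3, is a heparan sulfate proteoglycan at the cell surface. Both Afp and Gpc3 are used as markers of hepatocellular carcinoma. Hepatocytes hold miR-122 in large amounts, and like other microRNAs it represses transcripts through matches to its seed.

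The values are abundances per transcript length, normalised between libraries, so levels can be compared between genes. Their sums ran from 710702 to 869117 in KO libraries and from 873227 to 1166628 in WT libraries. Setting all sums equal moved the median log2 difference (KO minus WT) of the 10950 tested transcripts to 0.36, against 0.03 on the deposited scale, and changes of this size are read against that shift. One WT liver, WT replicate 3, is labelled female but named male in the table. Its Y-linked Ddx3y stood at 0.0422, against at least 13.2 in the livers labelled male, and it is treated as female here. Hepatocyte markers were present throughout, and Alb had the highest mean of all 30519 transcripts in KO and in WT livers.

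Of the 7 genes, Afp, Gpc3 and Zhx2 were higher in KO livers, and their KO values did not overlap with the WT values. Alb, Afm, Gc and Zbtb20 did not pass the test. The fetal gene and Gpc3 were thus higher together with Zhx2, one of their repressors, while Alb, Afm and Gc had no called difference. By limma on log2(abundance + 1) with Benjamini-Hochberg adjustment at 0.05, 3 of the 7 were called higher, beside 21.4% of the 10950 transcripts tested. By the same limma test 0 of the 7 were called lower, beside 14.5% of those tested, and 0 were lower at an unadjusted p below 0.05. Of all tested transcripts 31.1% had groups that did not overlap, 19.0% with KO higher and 12.1% with KO lower. All 7 passed the minimum mean of 1 over the 9 libraries, Gpc3 only through its KO values. The authors' deposited table also calls 3 of the 7 at a q-value under 0.05, beside 25.2% of the transcripts to which it gives a q-value, and all 3 are higher in KO.

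**Figure D1:**
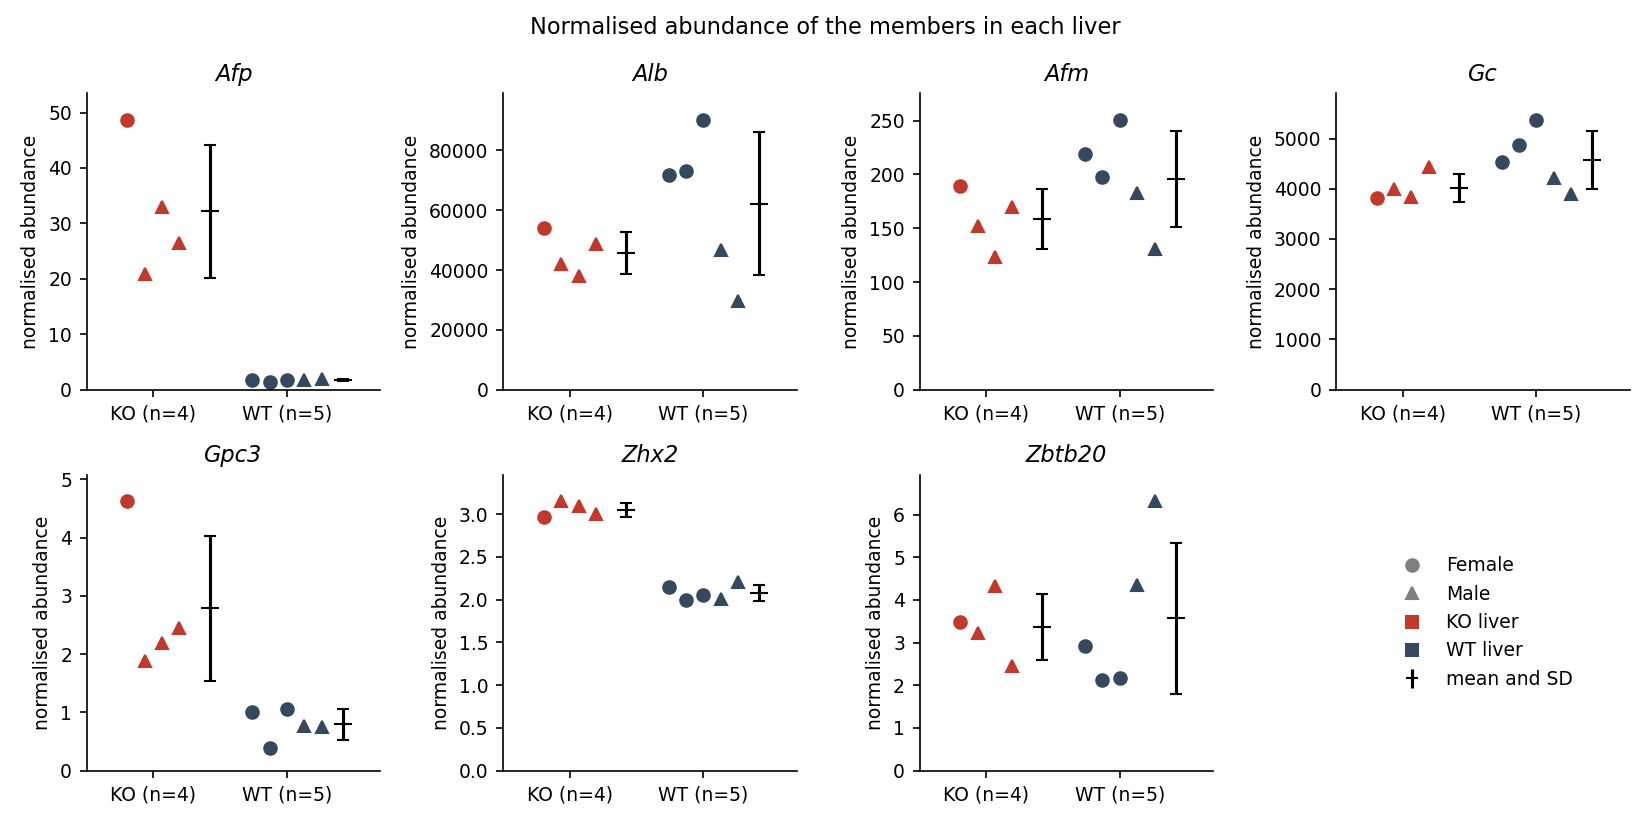
Normalised abundance (linear y axes from 0) of the 7 genes in each liver, with KO livers in red, WT livers in blue, circles for females, triangles for males, and bars for mean and SD. Afp, Gpc3 and Zhx2 separate the genotypes without overlap, while in WT livers Alb is higher in the 3 females than in the 2 males and Zbtb20 is lower.

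Afp (ENSMUSG00000054932) lies on the plus strand at chr5:90490737-90508907 of GRCm38, with 15 exons in GENCODE M21. Its abundance was 48.6, 20.9, 33.0 and 26.4 in KO replicates 1 to 4, against 1.72, 1.45, 1.82, 1.69 and 1.95 in WT replicates 1 to 5. Every KO liver was more than 10 times as high as any WT liver, and the KO female, replicate 1, was the highest. The KO mean of 32.2 ± 12 was 18.7-fold the WT mean of 1.73 ± 0.184 (SD, n = 4 and 5). The log2 difference was 3.54 (SE 0.20, 95% interval 3.09 to 3.99, limma adjusted p = 2.85e-06), the 13th highest among the 3934 called transcripts. In the authors' deposited table the log2 difference, turned to KO minus WT, is 4.10 (SE 0.24) with a q-value of 5.4e-63. In bulk liver RNA, more cells with Afp and more Afp per cell cannot be told apart.

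The WT level of Afp was low but measured. Afp had 657 to 1530.4 size-normalised reads in KO libraries, against 45.7 to 61.5 in WT libraries. By mean abundance Afp ranked 1940th of the 30519 transcripts in KO livers and 9339th in WT livers. The KO livers differed among themselves more than the WT livers, with a coefficient of variation of 37.2% against 10.7%, and counting error alone would give 3.14% and 13.6%. Among males alone, 3 KO against 2 WT, the log2 difference was 3.28 (limma adjusted p = 0.000747), and with equal sums it was 3.88 (limma adjusted p = 1.28e-06).

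The 4 KO livers had the same order for Afp as for the summed abundance of 4 proliferation markers (Mki67, Top2a, Ccnb1 and Cdk1). That sum was 34.2, 10.4, 22.7 and 17.6 in KO replicates 1 to 4, against 2.97 to 11.1 in WT livers, and 3 of the 4 genes were called higher. Among WT livers the orders differed. The sum was highest in WT replicate 1, at 11.1, and Afp was highest in WT replicate 5, at 1.95. The comparison of orders was not planned. Sums of several other marker lists were at hand, none with this order in KO livers, and 4 livers can share an order by chance. Markers of several other cell types were also high in KO livers. The counts of markers stand beside 21.4% of all tested transcripts called higher and 14.5% called lower. For bile duct and progenitor cells 4 of 5 tested genes (of 7 listed) were called higher, and the sum of the list ran from 561 to 935 in KO livers and from 37.1 to 62.4 in WT livers, most of it Spp1. For stellate cells 6 of 7 were higher, with sums of 112 to 127 in KO livers and 45.5 to 61.5 in WT livers. All 6 Kupffer cell markers were higher, with sums of 199 to 273 in KO livers and 135 to 193 in WT livers. Of the other lists, 1 of 1 tested lymphocyte, 2 of 4 erythroid and 2 of 2 neutrophil markers were higher, and among 6 endothelial and 6 hepatocyte markers 1 of each list was higher and 1 lower. Of the markers called higher, 3 of the bile duct and progenitor list, 1 of the stellate list and 1 of the proliferation list passed the minimum mean only through KO values. With equal sums 7 stellate, 6 Kupffer cell, 4 proliferation and 4 bile duct and progenitor markers were higher. So were 3 erythroid, 2 neutrophil, 1 lymphocyte, 1 endothelial and 1 hepatocyte marker. In each list 0 were lower, beside 45.0% higher and 2.72% lower among all transcripts. No marker in the table was at 0 in every library. Their part in the Afp, Gpc3 and Zhx2 differences was not tested.

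Alb (ENSMUSG00000029368), which starts at -29.8 kb from the Afp start on the same strand (chr5:90460897-90476602), had no called difference. Its abundance was 54092, 42021, 37940.3 and 48649.8 in KO replicates 1 to 4, against 71875, 72989, 90015, 46835 and 29487 in WT replicates 1 to 5. The groups overlapped: the 3 WT females were above every KO liver, and the WT males were within the KO range or below it. The means were 45676 ± 7139 in KO and 62240 ± 23927 in WT livers (SD, n = 4 and 5), with a log2 difference of -0.36 (SE 0.32, 95% interval -1.06 to 0.35, limma adjusted p = 0.411). The difference changed sign among males alone, at 0.20 (limma adjusted p = 0.663), and with equal sums, at 0.04 (limma adjusted p = 0.928). With sex as a covariate it stayed below 0, at -0.08 (limma adjusted p = 0.809). A single WT liver also moved it: it was -0.60 without WT replicate 5 (95% interval -1.12 to -0.08, limma adjusted p = 0.0711) and -0.20 without WT replicate 3 (limma adjusted p = 0.658). The authors' deposited table gives Alb a coefficient but no p-value.

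Alb made up 7.51, 5.54, 5.34 and 5.60% of the summed abundance in KO replicates 1 to 4, against 8.23, 7.88, 8.61, 4.50 and 2.53% in WT replicates 1 to 5. The low WT males were also the libraries in which major urinary protein (Mup) transcripts, secreted pheromone carriers of male mice, took the largest shares, 19.4% in WT replicate 4 and 31.3% in WT replicate 5. Without Mup and mitochondrial transcripts the Alb share was 10.1, 7.51, 7.39 and 8.25% in KO livers, and it was 12, 11.4, 13.1, 7.81 and 5.09% in WT livers. WT replicate 5 remained the lowest.

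Afm (ENSMUSG00000029369; chr5:90518932-90553543) starts 28.2 kb downstream of the Afp start. Its abundance was 189, 152, 123 and 170 (replicates 1 to 4) in KO livers, against 219, 197, 250, 183 and 131 (replicates 1 to 5) in WT livers. The groups overlapped, with a WT male, replicate 5, among the lowest. The KO mean was 159 ± 28.2 and the WT mean 196 ± 44.5 (SD, n = 4 and 5), a log2 difference of -0.29 (SE 0.19, limma adjusted p = 0.266). As for Alb, the sign turned with the scale, to 0.11 with equal sums (limma adjusted p = 0.718), and the difference was -0.07 among males alone (limma adjusted p = 0.825). It was -0.18 without KO replicate 3, -0.19 without WT replicate 3 and -0.43 without WT replicate 5 (limma adjusted p = 0.538, 0.462 and 0.0523). The q-value of Afm in the authors' deposited table is 0.361.

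Gc (ENSMUSG00000035540) lies further away on the minus strand, at chr5:89417522-89457898. Its abundance was 3815, 3994, 3843 and 4426 in KO replicates 1 to 4, against 4529, 4880, 5360, 4220 and 3889 in WT replicates 1 to 5. The groups overlapped, and Gc varied less between livers than Alb or Afm in both genotypes, with a coefficient of variation of 7.02% in KO and 12.5% in WT livers. The KO mean was 4019 ± 282 and the WT mean 4576 ± 572 (SD, n = 4 and 5). The log2 difference was -0.18 (SE 0.12, 95% interval -0.45 to 0.08, limma adjusted p = 0.265), and it was 0.22 with equal sums (limma adjusted p = 0.272). The q-value of Gc in the authors' deposited table is 0.687.

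Ratios between family members within a liver do not depend on how libraries were scaled. Per 100000 of Alb, Afp stood at 89.8, 49.7, 87.0 and 54.3 in KO livers, against 2.40, 1.99, 2.02, 3.62 and 6.62 in WT livers. The groups did not overlap, and the WT males, with their low Alb, were the highest of the WT livers. The mean ratio was 70.2 ± 21.1 in KO and 3.33 ± 1.95 in WT livers, 21.1-fold (two-sided exact permutation p = 0.0159, the smallest that 4 against 5 allows, and 0.0397 adjusted over 5 ratios). This ratio largely restates the 18.7-fold difference of Afp, known when the ratio was added, and is no separate result. Afm per 1000 of Alb was 3.46 ± 0.153 in KO and 3.37 ± 0.759 in WT livers (SD, exact permutation p = 0.698). Gc per 100 of Alb was 8.95 ± 1.33 in KO and 8.23 ± 3.02 in WT livers (SD, exact permutation p = 0.492). Even in KO livers Afp did not pass 89.8 per 100000 of Alb.

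**Figure D2:**
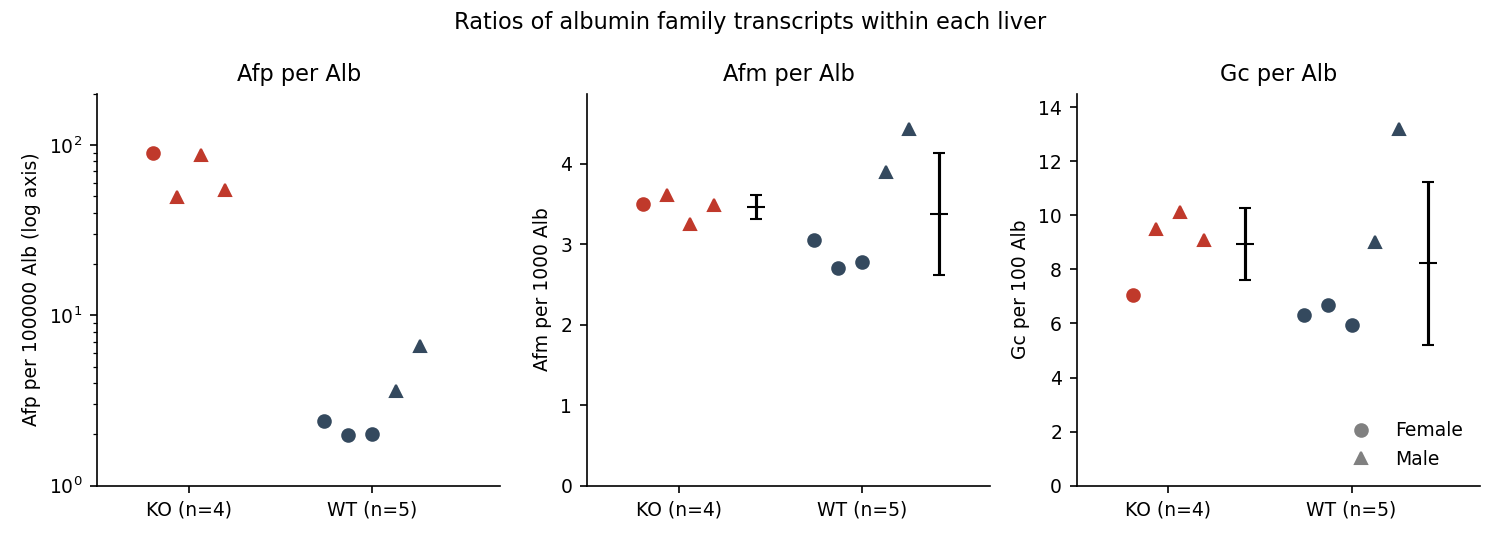
Abundance of Afp, Afm and Gc relative to Alb in each liver, with circles for females and triangles for males; the Afp panel has a log axis and no mean, the others start at 0 and show mean and SD. Afp per 100000 Alb is at least 49.7 in KO livers and at most 6.62 in WT livers, while the other ratios overlap.

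Afp was the only tested gene of its stretch of chromosome 5 that rose on the deposited scale. Further downstream, 5830473C10Rik, to which the RefSeq gene table gives the name Albfm1, was lower, at 17.7, 11.3, 13.3 and 11.3 in KO livers, against 23.5, 18.9, 22.6, 26.7 and 20.9 in WT livers. Its groups did not overlap, with means of 13.4 ± 3.01 in KO and 22.5 ± 2.95 in WT livers (SD, n = 4 and 5; log2 difference -0.72, limma adjusted p = 0.00375). Rassf6, a Ras association domain gene beyond it, averaged 4.80 ± 0.494 in KO and 7.39 ± 1.03 in WT livers (log2 difference -0.53, limma adjusted p = 0.00418). With equal sums neither was called, at limma adjusted p = 0.146 for Albfm1 and 0.309 for Rassf6. Both are called in the authors' deposited table, with q-values of 1.06e-05 for Albfm1 and 0.000146 for Rassf6. On the other side, Ankrd17 (log2 difference 0.11, limma adjusted p = 0.364, but called higher with equal sums, at 0.0288), Cox18 (-0.46, limma adjusted p = 0.146) and the predicted gene Gm9958 (-0.18, limma adjusted p = 0.550) were not called. The next gene past Rassf6, the neutrophil-attracting chemokine gene Cxcl5, was below the minimum mean, with 1.23 ± 0.401 in KO and 0.108 ± 0.0368 in WT livers.

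**Figure D3:**
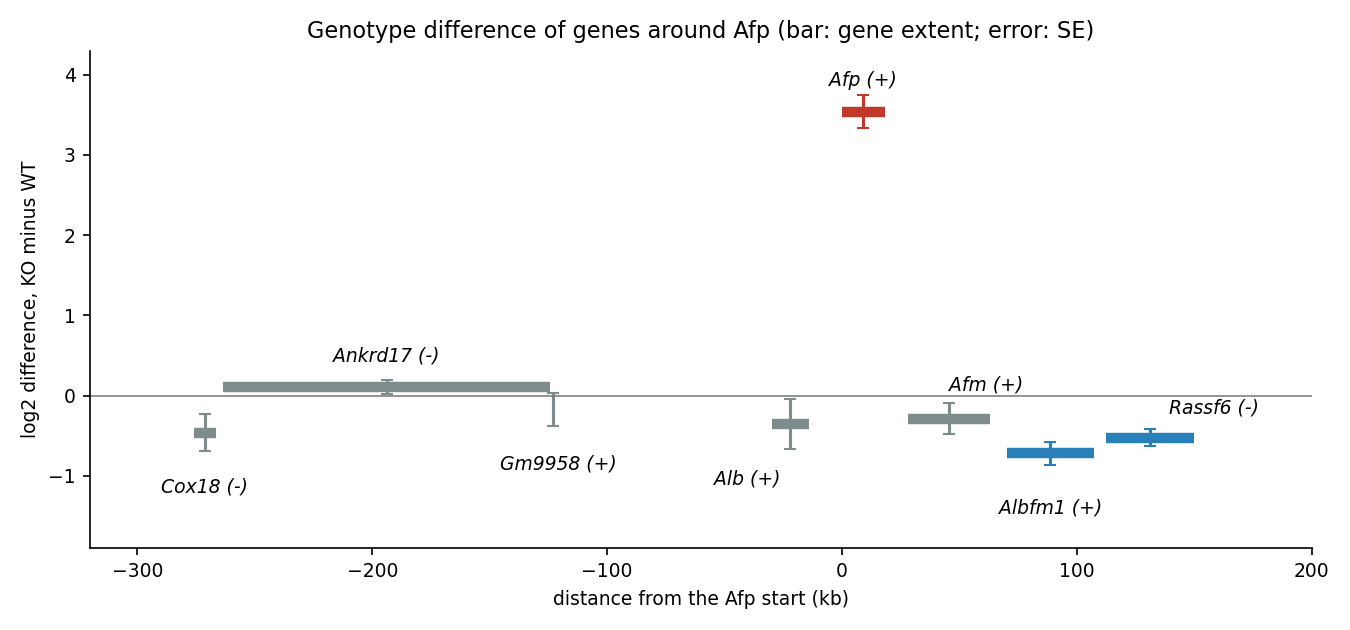
Log2 difference (KO minus WT, y axis, error bars SE) of the tested genes around Afp, drawn at their distance from the Afp start in kb, with the strand in brackets, red for higher, blue for lower and grey for not called. Afp stands at 3.54, while Alb at -29.8 kb and Afm at 28.2 kb are near 0 or below it.

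Afp rose while Alb and Afm, next to it on the same strand, did not, and Gpc3 rose as well. For this reason the sequences just upstream of the RefSeq starts of these 4 genes are shown. They are from RefSeq (GRCm38.p6), 250 bases each, with capitals for TATAAA (the TATA box, where the transcription machinery assembles) and CCAAT (the CCAAT box), searched on both strands; the motifs overlap nowhere here. The windows are chr5:90490464-90490713 (Afp, plus strand), chr5:90460620-90460869 (Alb, plus), chr5:90518699-90518948 (Afm, plus) and chrX:52613975-52614224 (Gpc3, minus).
Afp: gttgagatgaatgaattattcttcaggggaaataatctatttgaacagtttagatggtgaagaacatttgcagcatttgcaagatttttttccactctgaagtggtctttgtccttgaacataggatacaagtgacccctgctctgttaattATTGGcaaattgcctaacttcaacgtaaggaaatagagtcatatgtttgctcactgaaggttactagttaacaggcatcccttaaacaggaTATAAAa
Alb: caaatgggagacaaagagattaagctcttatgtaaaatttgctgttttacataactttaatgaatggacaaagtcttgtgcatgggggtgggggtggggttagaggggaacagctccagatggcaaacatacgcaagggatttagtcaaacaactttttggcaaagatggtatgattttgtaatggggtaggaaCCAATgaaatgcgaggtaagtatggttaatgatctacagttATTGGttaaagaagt
Afm: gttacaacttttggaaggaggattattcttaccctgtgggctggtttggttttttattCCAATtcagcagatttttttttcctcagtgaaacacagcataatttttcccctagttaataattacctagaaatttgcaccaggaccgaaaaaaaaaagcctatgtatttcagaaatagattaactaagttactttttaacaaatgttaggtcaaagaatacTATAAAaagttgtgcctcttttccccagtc
Gpc3: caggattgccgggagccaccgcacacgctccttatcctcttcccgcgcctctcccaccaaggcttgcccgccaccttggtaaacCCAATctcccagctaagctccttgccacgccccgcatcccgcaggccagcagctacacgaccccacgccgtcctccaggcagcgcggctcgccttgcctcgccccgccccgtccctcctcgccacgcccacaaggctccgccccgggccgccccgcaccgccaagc
TATAAA was found in 12.4% of 32851 promoter windows of the same length. Counted from the transcript starts of GENCODE M21, it begins at -30 in Afp and at -13 in Afm, and the windows of Alb and Gpc3 have none. The windows, set on RefSeq starts, begin 273 (Afp), 277 (Alb), 233 (Afm) and 303 (Gpc3) bases before the GENCODE starts. The Afm window thus runs into its GENCODE transcript, and the others stop short of theirs. Bases past the windows were not searched, and positions shift with the annotation. The windows of Alb and Gpc3 do not cover all the positions that TATAAA fills in Afp, so a match there would have been missed. CCAAT, found in 33.8% of windows, begins at -121 in Afp, at -83 and -42 in Alb, at -175 in Afm and at -219 in Gpc3. The Afp window has 36% G and C, Alb 39.2% and Afm 33.2%, whereas Gpc3 has 71.6% and 25 CpG, beside a median of 52.4% over all windows. CCAAT thus lies upstream of all 4 genes, and a match is a description, not a binding site.

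Gpc3 (ENSMUSG00000055653; chrX:52272426-52613921, minus strand, 8 exons) was higher in KO livers, at a low level in both genotypes. Its abundance was 4.62, 1.88, 2.19 and 2.46 in KO replicates 1 to 4, against 1.00, 0.394, 1.05, 0.771 and 0.741 in WT replicates 1 to 5. The groups did not overlap, and as for Afp the KO female was the highest. The KO mean of 2.79 ± 1.24 was 3.52-fold the WT mean of 0.792 ± 0.262 (SD, n = 4 and 5). The log2 difference was 1.04 (SE 0.20, 95% interval 0.59 to 1.49, limma adjusted p = 0.00338), which understates the change of so low a transcript, and it was 0.85 among males alone (limma adjusted p = 0.0188). The authors' deposited table gives 1.74 (SE 0.43) with a q-value of 0.000739. These levels rest on 63.3 to 155 size-normalised reads in KO and 13.2 to 35.4 in WT libraries.

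Its neighbour Gpc4, another glypican gene, was not called, with 16.1 ± 0.725 in KO and 17.2 ± 2.22 in WT livers (SD, n = 4 and 5; log2 difference -0.09, limma adjusted p = 0.518). With equal sums Gpc4 was called higher, by 0.29 (limma adjusted p = 0.0480), below the shift of the median. Of the other glypican genes, Gpc1, Gpc2, Gpc5 and Gpc6 were below the minimum mean. Gpc1 averaged 0.690 ± 0.226 in KO and 0.212 ± 0.0855 in WT livers, and Gpc6 0.890 ± 0.0677 in KO and 0.462 ± 0.0323 in WT livers, both without overlap. On the X chromosome Phf6 (limma adjusted p = 0.319) and Hprt (limma adjusted p = 0.141), beyond Gpc3, were not called, and Ccdc160, Usp26 and 1700080O16Rik were below the minimum mean.

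Zhx2 (ENSMUSG00000071757; chr15:57694665-57839832, plus strand, 4 exons), a repressor of Afp and of Gpc3 in mice, was higher in the livers in which both were higher. Its abundance was 2.97, 3.15, 3.09 and 3.00 in KO replicates 1 to 4, against 2.15, 1.99, 2.05, 2.01 and 2.21 in WT replicates 1 to 5. The groups did not overlap, and within each genotype the livers were close together, with no separate KO female. The KO mean of 3.05 ± 0.0828 was 1.47-fold the WT mean of 2.08 ± 0.0934 (SD, n = 4 and 5), a log2 difference of 0.40 (SE 0.07, 95% interval 0.24 to 0.56, limma adjusted p = 0.00231). The authors' deposited table gives 0.51 (SE 0.15) with a q-value of 0.00947. With equal sums it was 0.69 (limma adjusted p = 0.000769), beside the median of 0.36 over all transcripts. The difference was about as large among males alone, 0.39, but was not called there (limma adjusted p = 0.0798). The spread of Zhx2, 2.71% in KO and 4.49% in WT livers, was below the 6.93% and 8.39% that counting error alone gives at these read numbers.

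Zhx2's relatives Zhx1 and Zhx3, with which it forms dimers, were not called. Zhx1 averaged 8.83 ± 1.18 in KO and 10.6 ± 1.29 in WT livers (limma adjusted p = 0.121), and Zhx3 5.54 ± 0.716 in KO and 6.16 ± 0.894 in WT livers (limma adjusted p = 0.410). The ratio of Gpc3 to Zhx2 was 0.920 ± 0.434 in KO and 0.380 ± 0.123 in WT livers (SD, exact permutation p = 0.0159, 0.0397 adjusted over 5 ratios). It restates the larger fold of Gpc3 (3.52, against 1.47 for Zhx2), known when the ratio was added, and is no separate result.

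Zbtb20 (ENSMUSG00000022708; chr16:42907652-43642602, plus strand, 15 exons), the other repressor, showed no called difference, and its WT livers were widely spread. Its abundance was 3.47, 3.23, 4.34 and 2.45 in KO replicates 1 to 4, against 2.91, 2.12, 2.17, 4.34 and 6.31 in WT replicates 1 to 5. The WT males were higher than the WT females, and the KO livers lay between the WT extremes. The KO mean was 3.37 ± 0.778 and the WT mean 3.57 ± 1.77 (SD, n = 4 and 5), with a log2 difference of -0.00 and a 95% interval of -0.58 to 0.57 (limma adjusted p = 0.997). Among males alone it was -0.55, with an interval of -1.13 to 0.03 (limma adjusted p = 0.150). It was 0.32 with equal sums (limma adjusted p = 0.298) and 0.19 without WT replicate 5 (limma adjusted p = 0.490), so its direction differed between these settings. The q-value of Zbtb20 in the authors' deposited table is 0.987. The table holds 1 transcript of this gene, 26901 bases long, and other isoforms were not analysed here. Zhx2 relative to Zbtb20 was 0.942 ± 0.218 in KO and 0.687 ± 0.273 in WT livers (SD, exact permutation p = 0.222).

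**Figure D4:**
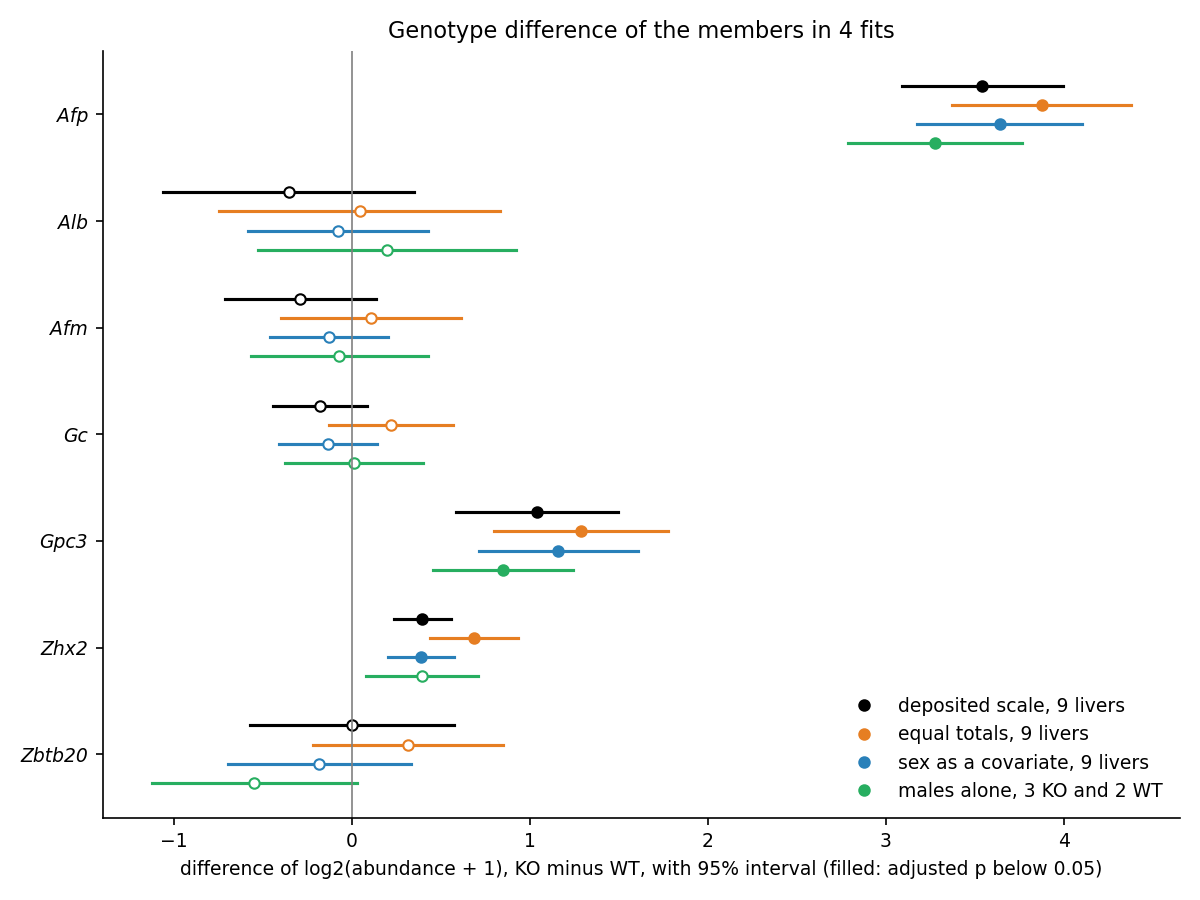
Log2 difference (KO minus WT) of the 7 genes with 95% intervals in 4 limma fits: the deposited scale, equal sums, sex as a covariate, and males alone; filled points have an adjusted p below 0.05. Afp, Gpc3 and Zhx2 are filled in every fit except Zhx2 among males alone (0.39), and the intervals of Alb, Afm, Gc and Zbtb20 include 0 throughout.

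The effect of genotype was also compared between the sexes, which rests on the single KO female. By limma's interaction term none of the 7 genes differed after adjustment. Afp had a difference of effects (log2, females minus males) of 0.94, Zbtb20 of 0.95 and Gpc3 of 0.80. That of Alb was -0.72, of Gc -0.37, of Afm -0.15 and of Zhx2 -0.02. Over all 10950 transcripts 13 were called.

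Matches to the miR-122 seed were looked for in the 3′ UTR of each transcript, as CACTCC, the complement of the bases from 2 to 7 of the microRNA. There were 0 in Afp (201 bases), Alb (169), Afm (151), Gc (190), Gpc3 (359) and Zhx2 (1246). Zbtb20, which had no called difference, had 4 in its 3′ UTR of 23858 bases, beside 25.2% of 9834 tested transcripts that had any, with a median length of 896 bases. Its pair with a further matching base on one side is shown, with CACTCC in capitals, at chr16:43622159-43622164 (first) and chr16:43634790-43634795 (second) of GRCm38, plus strand.
Zbtb20 first: ctgaaggaCACTCCgttggcat
Zbtb20 second: tgcatatcCACTCCagttcctt
The first has an A before the capitals, which pairs with base 8 of miR-122, and the second an A after them. A match is a description of these letters, not of binding.

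Among other fetal and oncofetal genes of the liver, Igf2, Cd24a, Epcam and Sox4 were higher in KO livers. Of 27 listed genes 15 were tested, 9 were higher and 1 was lower, beside 21.4% and 14.5% of all tested transcripts, and the median log2 difference was 0.90, beside 0.03. Of the 9, 5 (Epcam, Prom1, Sox4, Sox9 and Tspan8) passed the minimum mean only through their KO values, so the count and the median are in part set by that minimum and are given as a description. Igf2, the fetal growth factor, averaged 961 ± 480.0 in KO and 1.78 ± 0.459 in WT livers (limma adjusted p = 1.22e-07). Cd24a, a surface protein of progenitor cells, averaged 16.6 ± 1.73 in KO and 2.09 ± 0.2995 in WT livers (limma adjusted p = 4.35e-07). Epcam, an adhesion molecule of ductal cells and hepatoblasts, averaged 8.76 ± 1.03 in KO and 0.885 ± 0.260 in WT livers (limma adjusted p = 1.71e-06). Sox4, a transcription factor of the developing bile ducts, averaged 6.0 ± 1.61 in KO and 0.561 ± 0.0900 in WT livers (limma adjusted p = 7.40e-06). Fetub, which encodes a fetuin of plasma, was lower, at 105 ± 9.34 in KO and 206 ± 21.6 in WT livers (limma adjusted p = 0.00011). Several of these genes also mark ductal or progenitor cells, whose marker sums are given above. With equal sums 12 were higher and 1 was lower, beside 45.0% and 2.72% of all transcripts. Among the untested genes, Dlk1, Hmga2, Igf2bp1, Lin28b, Plag1, Sall4 and Sox11 had KO means of at most 0.119. Of the other untested genes, Bex1, Bex2, Fbn2 and Peg10 were higher in KO livers without overlap. Igf2bp2, Igf2bp3, Mest, Spink1 and Ahsg were tested and not called on the deposited scale.

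Among plasma proteins secreted by adult hepatocytes, genes such as Plg and Fgb were lower in KO livers on the deposited scale. Of 24 genes, all tested, 11 were lower and 1 was higher, beside 14.5% and 21.4% of all tested transcripts, with a median log2 difference of -0.35, beside 0.03. Plg, the plasminogen gene, averaged 745 ± 36.9 in KO and 1059.7 ± 62.2 in WT livers (limma adjusted p = 0.00111). Itih4, an inhibitor heavy chain gene, averaged 217 ± 25.4 in KO and 369.9 ± 73.7 in WT livers (limma adjusted p = 0.00488). Serpinc1, the antithrombin gene, averaged 887 ± 41.2 in KO and 1201 ± 113 in WT livers (limma adjusted p = 0.00584). Fgb, which encodes a fibrinogen chain, averaged 1432 ± 73.9 in KO and 2298 ± 494 in WT livers (limma adjusted p = 0.00695). Trf, the transferrin gene, was higher, at 6812 ± 1905 in KO and 4516 ± 677 in WT livers (limma adjusted p = 0.0398), with overlapping groups; its call ended without any 1 liver other than KO replicate 3 or WT replicate 3 (up to 0.0828), and its q-value in the authors' deposited table is 0.0730. This pattern depends on the scale: with equal sums 0 were lower and 8 were higher, beside 2.72% and 45.0% of all transcripts, and the median was 0.05, beside 0.36. The log2 differences of Alb, Afm and Gc, none of them called, lay between -0.36 and -0.18.

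**Figure D5:**
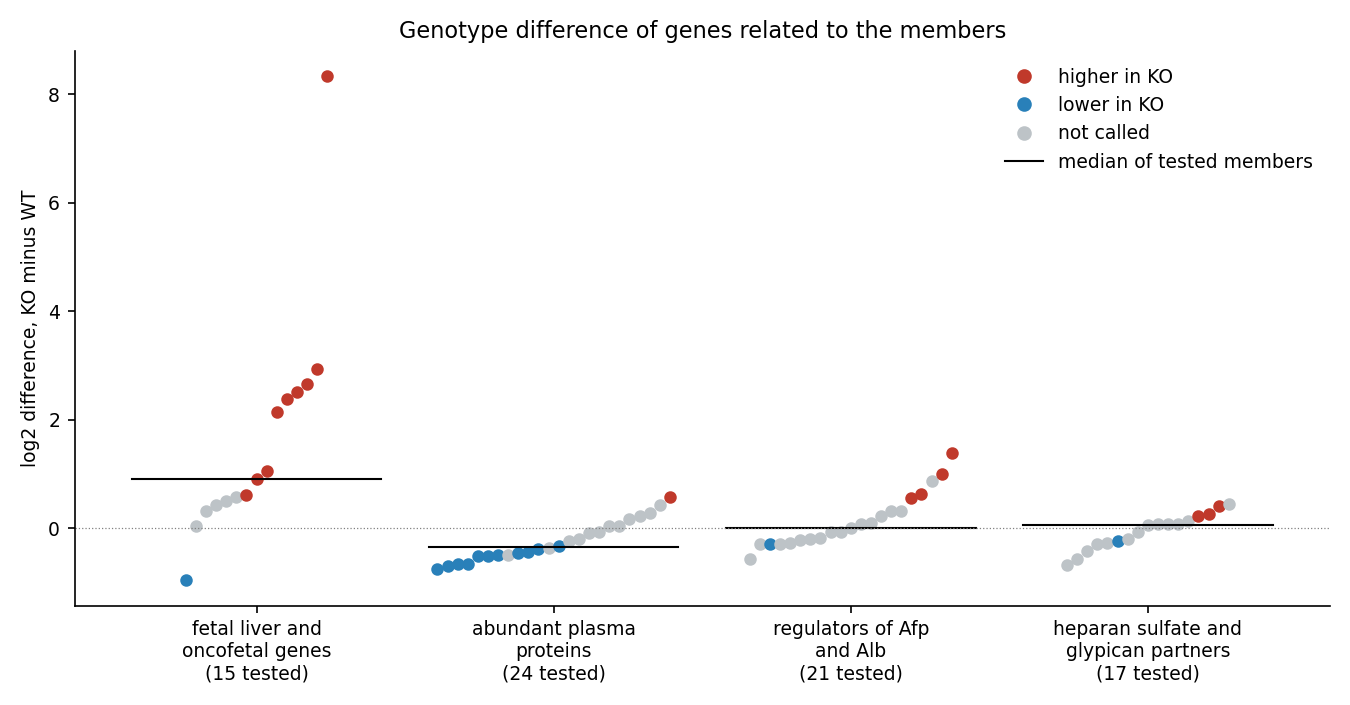
Log2 difference (KO minus WT, y axis) of every tested gene in 4 lists, each sorted by value, with red for higher, blue for lower, grey for not called and a line at the list's median. The medians are 0.90 for fetal and oncofetal genes, -0.35 for plasma proteins, 0.01 for regulators of Afp and Alb and 0.05 for heparan sulfate and glypican partners.

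Of 23 other regulators of Afp and Alb transcription, 21 were tested, 4 were higher and 1 was lower, beside 21.4% and 14.5% of all transcripts, with a median log2 difference of 0.01, beside 0.03. With equal sums 6 were higher and 0 lower, beside 45.0% and 2.72%, and the median was 0.32, beside 0.36. These counts are near or below those over all transcripts and show nothing particular to the list. Onecut1, an activator in hepatoblasts, averaged 8.45 ± 3.93 in KO and 2.50 ± 1.02 in WT livers (limma adjusted p = 0.00568). Ctnnb1, the beta-catenin gene, averaged 107 ± 14.6 in KO and 68.5 ± 8.39 in WT livers (limma adjusted p = 0.00236). Foxa1, a pioneer factor that opens liver enhancers, averaged 6.49 ± 1.80 in KO and 4.00 ± 0.662 in WT livers (limma adjusted p = 0.0260). Trp53, whose product represses Afp in mice, averaged 8.89 ± 0.756 in KO and 4.52 ± 3.00 in WT livers (limma adjusted p = 0.0434), with overlapping groups. Nfic, a nuclear factor I gene, was lower, at 8.53 ± 1.20 in KO and 10.6 ± 0.547 in WT livers (limma adjusted p = 0.0378), and was not called with equal sums (limma adjusted p = 0.689). The call of Foxa1 ended when KO replicate 3, KO replicate 4 or any WT female was left out (limma adjusted p up to 0.0724). That of Trp53 ended without any 1 liver other than WT replicate 2 or 3 (up to 0.0937), and that of Nfic without any 1 other than KO replicate 2 or 3 or WT replicate 2 (up to 0.0918). In the authors' deposited table Trp53 has a q-value of 0.0885. Hnf4a (log2 difference 0.10) and Cebpa (-0.18), activators of adult Alb, were not called.

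Among genes listed as candidates for control by Zhx2 or Zbtb20, Lpl alone was called over the 9 livers on the deposited scale. Of 10 listed, 9 were tested, 1 was higher and 0 were lower by limma, beside 21.4% and 14.5% of all transcripts. The median log2 difference was 0.53, beside 0.03. With equal sums 2 were higher and 1 lower, beside 45.0% and 2.72% of all transcripts, and the median was 0.93, beside 0.36. Lpl, the lipoprotein lipase gene, averaged 49.96 ± 13.4 in KO and 22.3 ± 5.73 in WT livers (limma adjusted p = 0.00227). Elovl3, a fatty acid elongase gene with male-biased expression in mouse liver, was at 1.06 ± 0.659 in KO and 108 ± 154 in WT livers and was not called (limma adjusted p = 0.0538). Its values did not overlap, at 0.382, 0.632, 1.74 and 1.504 in KO replicates 1 to 4, against 5.89, 2.17, 7.91, 173 and 349.8 in WT replicates 1 to 5, with the WT males far above the WT females. It was called lower with equal sums (log2 difference -3.45, limma adjusted p = 0.0384) and among males alone (-6.79, limma adjusted p = 0.000488). Among the males alone, 3 KO and 2 WT livers, Cyp4a12a was also lower (-2.03, limma adjusted p = 0.000488), and Cyp2b9 (4.59, limma adjusted p = 0.0140) and Cyp2b13 (4.60, limma adjusted p = 0.00373) were higher; these are cytochrome P450 genes with sex-biased expression in mouse liver. None of these 3 was called over the 9 livers (limma adjusted p = 0.515 for Cyp2b9, 0.643 for Cyp2b13 and 0.959 for Cyp4a12a).

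Of the genes that handle the ligands of these proteins, Cyp2r1 and Cyp27a1 were lower in KO livers. Of 12 listed, 7 were tested, 0 were higher and 2 were lower by limma, beside 21.4% and 14.5% of all transcripts, with a median of -0.12, beside 0.03. With equal sums 2 were higher and 2 lower, beside 45.0% and 2.72%, and the median was 0.28, beside 0.36. Both that fell act on ligands of the vitamin D binding protein or on sterols. Cyp2r1, the main vitamin D 25-hydroxylase, averaged 7.15 ± 1.58 in KO and 14.6 ± 3.96 in WT livers (limma adjusted p = 0.00596). Cyp27a1, the sterol 27-hydroxylase, averaged 87.5 ± 19.2 in KO and 161 ± 13.2 in WT livers (limma adjusted p = 0.000988). Fcgrt, the receptor that recycles albumin, averaged 85.2 ± 12.7 in KO and 88.4 ± 16.7 in WT livers (limma adjusted p = 0.861).

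Among 21 heparan sulfate and glypican partners, 17 were tested, 3 were higher and 1 was lower, beside 21.4% and 14.5% of all transcripts, with a median of 0.05, beside 0.03. With equal sums 7 were higher and 0 lower, beside 45.0% and 2.72%, and the median was 0.27, beside 0.36. These counts too are near or below those over all transcripts. Ext1, a heparan sulfate polymerase, averaged 10.8 ± 0.848 in KO and 7.95 ± 1.16 in WT livers (limma adjusted p = 0.0157). Cd81, a tetraspanin that binds glypican 3, averaged 167 ± 8.31 in KO and 139 ± 7.90 in WT livers (limma adjusted p = 0.0179). Hs2st1, a 2-O-sulfotransferase, averaged 4.60 ± 0.235 in KO and 3.83 ± 0.266 in WT livers (limma adjusted p = 0.0462). Xylt2, a xylosyltransferase that starts the chains, was lower, at 3.41 ± 0.253 in KO and 4.23 ± 0.270 in WT livers (limma adjusted p = 0.0311), and was not called with equal sums (limma adjusted p = 0.657). The call of Cd81 ended without KO replicate 4 (limma adjusted p = 0.0509), that of Hs2st1 without any 1 liver other than WT replicate 4 (up to 0.118), and that of Xylt2 without any 1 other than KO replicate 3 or WT replicate 2 or 5 (up to 0.0830). None of the 4 is called in the authors' deposited table, where the q-value is 0.0690 for Ext1, 0.194 for Cd81, 0.272 for Hs2st1 and 0.0834 for Xylt2.

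The transcripts whose profile over the 9 livers was most like a member's were found by the root mean square difference of log2 values centred on the WT mean, among 9881 named protein-coding genes. For Afp these were Vil1, Sprr1a, Gstm3, Cd63 and Ifi27l2b, at 0.30 to 0.41. For Gpc3 they were Tuba1b, Nusap1, Cdca8, Mcm6 and Kif22, at 0.16 to 0.20. For Zhx2 they were Sptlc1, Ergic3, Pigv, Ppp4c and Maea, at 0.05 to 0.06. For Zbtb20, which did not separate the genotypes, they were Comtd1, F2r, Pnpla7, Calr and Zkscan3, at 0.16 to 0.21. The measure includes the genotype difference itself, so likeness to Afp, Gpc3 or Zhx2 is in part a like difference. Vil1, Sprr1a, Nusap1, Cdca8, Mcm6 and Kif22 passed the minimum mean only through their KO values.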

How the data were processed

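PolyA RNA-seq of 4 KO and 5 WT mouse livers was analysed from 1 table of 30519 transcripts, grouped by the labelled genotype. The submitters' processing notes name kallisto, sleuth and mm10, but neither versions nor transcript set, which the sources used here do not give. The abundance columns deposited by the authors are a normalised signal per transcript length, with sums that differ between libraries. For 13540 transcripts the authors give a p-value and a q-value. Their deposited coefficients (WT minus KO) and mean observations are natural log values, and the coefficients were turned and converted to log2 here. Variance columns, also deposited by the authors, were not used. Size-normalised reads were obtained as abundance times the reads per unit that the mean observation gives, and counting errors from them cover counting only.

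The 10950 transcripts whose mean over the 9 libraries reached 1 entered a limma 3.58.1 fit (R 4.3.3) of log2(value + 1) on genotype alone, with a trended prior variance and Benjamini-Hochberg adjustment at 0.05. The test planned for abundances was applied to this signal. No count test was used, since the values are not counts. Folds are ratios of means, and log2 differences understate changes of low transcripts. Ratios within a liver were compared by two-sided exact permutation tests of the difference of mean log2 ratios (scipy 1.17.1). Gene structures are from GENCODE M21, in which 98.6% of transcripts were found, and promoter windows from RefSeq, which hold 6 of the 7 genes; those of Afp, Alb, Afm and Gpc3 are shown.

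The 7 genes and all lists were chosen with earlier results of these data known, so they are no independent evidence of a direction, and lists get counts and medians only. All 7 genes are named, and each list gives at most 4 genes in either direction, by adjusted p, plus the 3 protein-coding genes on each side of the Alb block and of Gpc3; other genes with values in the text were chosen after their values were seen. The within-liver ratios and the fit with sex from the column name were added after seeing the data. No pair of libraries was a duplicate, with Pearson r from 0.913 to 0.981.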

Additional observations from a re-analysis of the deposited data

Results flagged for a closer look

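In 5 of 72 sets examined (the 7 genes, 24 other named genes and 5 ratios, by genotype), 1 liver stood apart from the rest of its genotype by Dixon's criterion; chance marks about 1 in 20 sets. Of these, 3 concern WT replicate 5, a male: it was the lowest WT liver for Fetub, at 168, the highest for Lpl, at 32.1, and the highest for Sox4, at 0.720. WT replicate 1 was the highest WT liver for Igf2, at 2.59. KO replicate 2 was the lowest KO liver for Fgb, at 1322. In each of the 5 genes the KO and WT livers did not overlap with that liver included. No liver was marked for Afp, Alb, Afm, Gc, Gpc3, Zhx2 or Zbtb20, or for a ratio between them.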

How the results depend on the processing

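The 3 calls among the 7 genes held under every alternative run except Zhx2 among males alone, at 0.39 (limma adjusted p = 0.0798); the authors' deposited table also calls 3. With each liver left out in turn, log2 differences stayed between 3.33 and 3.72 for Afp, 0.83 and 1.16 for Gpc3 and 0.38 and 0.41 for Zhx2, and 3 genes were called higher and 0 lower each time. Replicate numbers did not pair the livers (same-numbered livers correlated at 0.23, 0.08, -0.18 and 0.11 in their deviations); with the replicate number as a block, Afp was 3.57, Gpc3 1.03 and Zhx2 0.41, all called. Of all transcripts 2345 were higher and 1589 lower, against 4926 and 298 with equal sums and 1416 and 822 among males alone. Of the plasma proteins, 1 was higher, against 8 with equal sums, 2 with sex as a covariate, and 0 without the filter, with median ratio scaling, with sex from the column name and with the replicate block, and 0 to 2 with 1 liver left out; 11 were lower, against 0 with equal sums and 0 among males alone. The cause was not tested. Of 24 other named genes called, 13 were not called among males alone (Cd81, Ext1, Fgb, Foxa1, Hs2st1, Itih4, Lpl, Nfic, Plg, Rassf6, Serpinc1, Trf and Xylt2), all 13 in the same direction, some with differences as large (Itih4 -0.75 in both, Fgb -0.76 against -0.66). With equal sums 8 lost the call (Albfm1, Fgb, Itih4, Nfic, Plg, Rassf6, Serpinc1 and Xylt2), with the replicate block 5 (Hs2st1, Nfic, Trf, Trp53 and Xylt2), with sex as a covariate 3 (Foxa1, Hs2st1 and Trf) and with median ratio scaling 3 (Hs2st1, Trf and Trp53), and 6 are not called in the authors' deposited table (Cd81, Ext1, Hs2st1, Trf, Trp53 and Xylt2). Gpc3 rests on few reads in WT livers, and 1 transcript per gene was listed.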
